A study of Mus musculus with 4 samples.

Results

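A set of 9 genes that mark haematopoietic stem cells were followed through the bone marrow of mice treated with vitamin B12, butyrate or both: Hlf, Mecom, Meis1, Hoxa9, Gata2, Mllt3, Procr, Slamf1 and Cdkn1c. They were chosen by name as stem cell identity genes, 9 of the 33696 genes in the deposited count matrices, and all 9 were found. The marrow came from lethally irradiated hosts that had been reconstituted with equal parts of CD45.1+ Tet2+/+ and CD45.2+ Tet2+/- cells. After 1 month of engraftment the hosts were treated for 7 months. The B12+Butyrate group received intraperitoneal injections of 0.29 µg vitamin B12 and drinking water with 100 mM sodium butyrate, and the B12 group the same injections with 100 mM NaCl water. The Butyrate group received PBS injections and butyrate water, and the Control group PBS and NaCl water. Every cell analysed was live, CD45.2+ and labelled Tet2+/-, so all 4 groups share the loss of 1 Tet2 copy and no Tet2+/+ library was analysed here. Frozen marrow of 3 mice was pooled per group, Kit+ and Kit- sorted cells were mixed 50:50, and 1 10x Genomics 3' library was made per group. With n = 1 library per group no difference has a replicate check, no p-value is given, and the 3 mice of a pool cannot be told apart.

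Stem cell identity in blood is held by a small group of transcription factors that act together, and these 9 genes cover that group and some of its companions. Hlf, a PAR-type leucine zipper factor, and Mecom, a zinc finger factor, are needed to keep long-term stem cells. Meis1 and Hoxa9 are homeodomain proteins that bind DNA as partners, and Gata2 is the GATA factor of stem cells and of mast cells and basophils. Mllt3 is a chromatin reader of the super elongation complex, known from human cells to sustain stem cells in culture. Procr (the endothelial protein C receptor) and Slamf1 (CD150) are surface proteins used to sort stem cells, and Cdkn1c (p57) is a cyclin-dependent kinase inhibitor linked to quiescence.

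The libraries held 8070 barcodes in B12+Butyrate, 8980 in B12, 7932 in Butyrate and 9688 in Control, with between 95892397 and 123435815 unique molecular identifiers (UMIs, counted RNA molecules). A barcode was kept with 500 or more genes, 1000 or more UMIs and no more than 10% of them mitochondrial, which left 7616, 8048, 6793 and 8752 barcodes in the same order. Kit-positive here means at least 1 UMI of Kit, the stem cell factor receptor, and Kit-negative none. This held for 1937 barcodes in B12+Butyrate, 2063 in B12, 1587 in Butyrate and 1887 in Control, or 21.6% to 25.6% of a library, although Kit+ and Kit- sorted cells had been mixed 50:50. Kit-positive barcodes had medians of 20181 to 21348 UMIs. Pairs of libraries shared 8 to 23 filtered barcodes. Levels are UMIs of a gene per 1000000 UMIs of the cells in question (CPM), and intervals are exact 95% intervals (Poisson for CPM, Clopper-Pearson for shares) that cover counting error only.

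RefSeq promoter sequences (build GRCm38.p6) were available for 8 of the 9 genes, in 11 windows of 250 bases upstream of an annotated start. They are shown for Mecom, Meis1 and Hlf, the 3 factors that were detected together in the same cells and that differed most between libraries. Capitals mark the letters GATAA or, on the other strand, TTATC, the core bound by GATA factors such as Gata2, and every sequence is written 5′ to 3′ on the strand of its gene.
Mecom, chr3:30509760-30510009, minus strand: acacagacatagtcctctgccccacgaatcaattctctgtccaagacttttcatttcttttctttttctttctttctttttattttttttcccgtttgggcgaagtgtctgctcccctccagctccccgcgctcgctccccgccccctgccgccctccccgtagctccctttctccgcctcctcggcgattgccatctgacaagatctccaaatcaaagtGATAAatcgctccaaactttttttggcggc
Mecom, chr3:30013205-30013454, minus strand: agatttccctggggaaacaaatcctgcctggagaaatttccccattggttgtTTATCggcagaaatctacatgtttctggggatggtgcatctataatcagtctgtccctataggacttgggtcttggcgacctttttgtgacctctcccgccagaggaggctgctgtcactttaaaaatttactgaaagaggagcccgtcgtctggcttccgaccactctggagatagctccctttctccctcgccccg
Meis1, chr11:19018970-19019219, minus strand: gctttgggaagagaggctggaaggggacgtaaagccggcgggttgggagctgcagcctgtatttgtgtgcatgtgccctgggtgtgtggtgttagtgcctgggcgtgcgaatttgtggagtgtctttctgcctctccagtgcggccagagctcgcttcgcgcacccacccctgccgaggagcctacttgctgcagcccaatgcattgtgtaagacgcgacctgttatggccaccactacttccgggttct
Hlf, chr11:90390918-90391167, minus strand: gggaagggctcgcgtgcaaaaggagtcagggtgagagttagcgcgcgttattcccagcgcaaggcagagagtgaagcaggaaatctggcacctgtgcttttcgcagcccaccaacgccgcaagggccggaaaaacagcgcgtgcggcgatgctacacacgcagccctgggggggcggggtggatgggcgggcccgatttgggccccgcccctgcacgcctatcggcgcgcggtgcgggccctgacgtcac
Both Mecom windows held the motif 1 time, and the Meis1 and Hlf windows did not hold these letters. Over the 8 genes, 4 of 11 windows held it (both of Mecom, 1 of Hoxa9 and 1 of Slamf1), against 22.6% of 32851 windows of the same length in the mouse table.

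Cells were clustered with the 9 genes left out of the variable genes and of the naming markers, so their own counts did not place a cell. Genes that vary with them did, and class levels are therefore given as a description. The class called HSC/MPP-like (stem cells and multipotent progenitors) was 1 cluster of 760 cells, with 127 cells in B12+Butyrate, 200 in B12, 221 in Butyrate and 212 in Control. Its 10 leading genes by fold included Mecom, Angpt1, Adgrg1, Cd34, Prkg1, Adgrl4, 2610307P16Rik, Muc13 and Meis1, so 2 of the 9 genes were among the 10 that set it apart although neither had been used. The 12 naming markers of the class summed to 1663 CPM in B12+Butyrate, 1754 in B12, 2387 in Butyrate and 2153 in Control, with none at 0. They summed to at most 100.5 CPM in GMP-like cells (granulocyte-monocyte progenitors). Of 7 erythroid markers, 3 or 4 were at 0 in HSC/MPP-like cells.

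Mecom was the most restricted of the 9. HSC/MPP-like cells had 123 CPM in B12+Butyrate, 188 in B12, 185 in Butyrate and 209 in Control, a mean of 176 ± 37.0 CPM (SD over the 4 libraries, which differ in treatment), and 85.4% of all Mecom UMIs lay in this class. Basophil/mast-like cells came next at 37.4 ± 9.51 CPM followed by GMP-like cells at 4.75 ± 1.85 CPM, with no overlap between the ranges of these 3 classes. Neutrophil-like cells had 22 Mecom UMIs in 14460 cells. B-lineage-like cells, which stand for background here, had 0 in 2454 cells, although their median depth of 3579 to 4915 UMIs was far below the 19650 to 30196 UMIs of HSC/MPP-like cells. For a count of 0 the bound was taken as 3 cells of those counted, not as the Clopper-Pearson limit. It allows a share of cells with a Mecom UMI of up to 0.3995% to 0.713% per library. At this depth that is no limit on cells that express it.

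Hlf was highest in the same class but reached further down the granulocyte lineage. HSC/MPP-like cells had 53.3 CPM (46.2 to 61.2) in B12+Butyrate, 75.3 (67.8 to 83.4) in B12, 114 (105 to 123) in Butyrate and 93.0 (84.4 to 102) in Control, and no pair of these intervals overlapped. GMP-like cells had 15.4, 16.1, 14.4 and 14.2 CPM in the same order, all below every HSC/MPP-like library, with a UMI in 28.5% to 32.1% of cells. That range was nearly flat, and basophil/mast-like cells averaged 14.8 ± 6.67 CPM, with a range that contains that of GMP-like cells. Neutrophil-like cells held 7.78 ± 0.694 CPM, and since they were numerous they carried 35.7% of all Hlf UMIs, nearly as many as the 38.0% of HSC/MPP-like cells. B-lineage-like and macrophage-like cells had 0 Hlf UMIs, in 2454 and 780 cells. The step between HSC/MPP-like and GMP-like cells differed with Kit. In HSC/MPP-like cells with no Kit UMI (18, 35, 46 and 51 cells in the order above) Hlf was at 15.6, 9.88, 27.3 and 10.2 CPM, so that the log2 ratio of the classes, with 10 CPM added to both, was 1.91 over all cells and -0.15 over those with no Kit UMI.

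**Figure D1:**
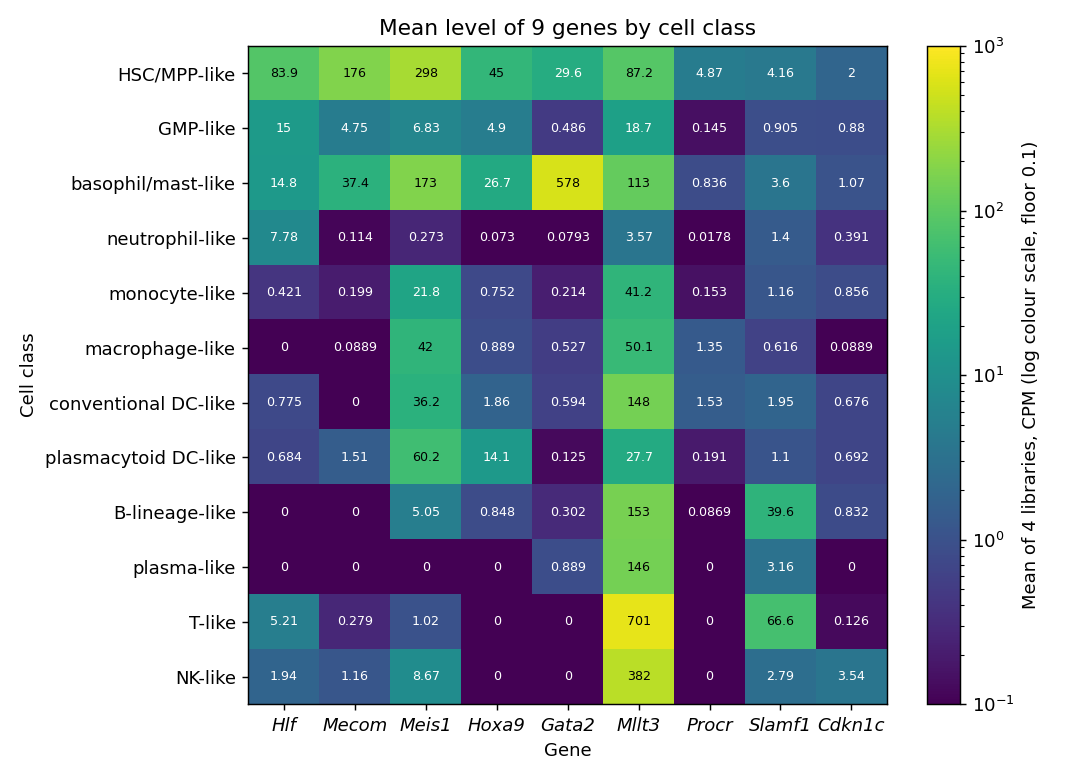
Mean level of each of the 9 genes (columns) in 12 cell classes (rows), in CPM averaged over the 4 libraries, on a log colour scale. Mecom is bright in the HSC/MPP-like row (176 CPM) and dark in most others, while Mllt3 and Slamf1 are brightest in T-like cells (701 and 66.6 CPM) and Gata2 in basophil/mast-like cells (578 CPM).

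Within the neutrophil-like class the Hlf level differed between clusters. The 4 clusters led by Cenpf and Ube2c, H1f3 and H2bc15, Ube2c and Spc25 or Fcnb and Cdc25a had 7.50 to 9.76 CPM and a Kit UMI in 48.8% to 51.4% of cells. The cluster led by Inhba and Cep19 had 13.4 CPM, close to GMP-like cells, with a Kit UMI in 20.5%. The level was 3.38 CPM in the cluster led by Thbs1 and Mmp9, 1.39 CPM in that led by Retnlg and Gpr27 and 0.444 CPM in that led by Il1b and Cstdc4, where 0.798% of cells had a Kit UMI. Mecom averaged at most 0.290 CPM and Meis1 at most 2.01 CPM in these 9 clusters.

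**Figure D2:**
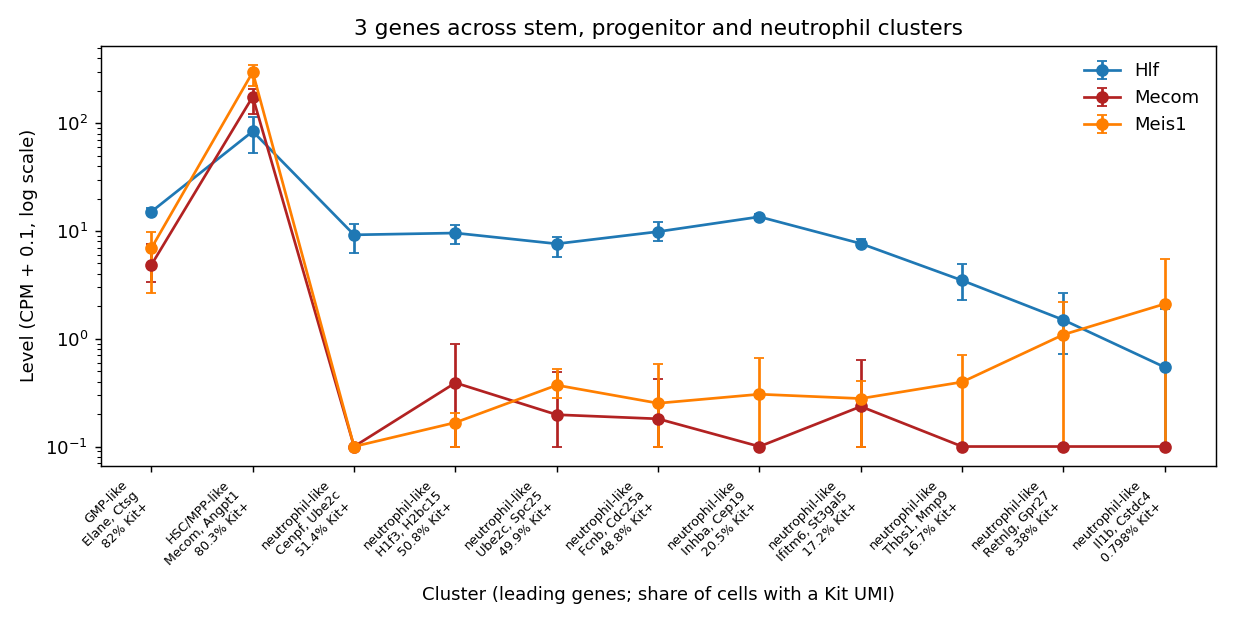
Levels of Hlf, Mecom and Meis1 (CPM plus 0.1, log axis) in the GMP-like, HSC/MPP-like and 9 neutrophil-like clusters, ordered by the share of cells with a Kit UMI. Points are means of 4 libraries and bars run from the lowest to the highest library; Hlf stays at 7.50 CPM or above until the last 3 clusters, while Mecom stays at or below 0.290 CPM and Meis1 at or below 2.01 CPM in the neutrophil-like clusters.

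Meis1 was broad. It was found in 84.2% of HSC/MPP-like cells, with 221 CPM in B12+Butyrate, 281 in B12, 347 in Butyrate and 344 in Control. Basophil/mast-like cells followed with 88.0, 208, 207 and 189 CPM in the same order, low in B12+Butyrate alone and from only 30, 48, 26 and 54 cells. Mature classes kept Meis1 too, at 60.2 ± 5.70 CPM in plasmacytoid DC-like, 42.0 ± 7.56 in macrophage-like, 36.2 ± 3.56 in conventional DC-like and 21.8 ± 1.05 in monocyte-like cells. The ranges of macrophage-like and conventional DC-like cells overlapped, and the others in that order did not. Over cells with no Kit UMI, however, the log2 ratio of HSC/MPP-like over basophil/mast-like cells was -0.01, against 0.75 over all cells. That value rests on few cells, since 16, 28, 19 and 38 of the basophil/mast-like cells, in the library order above, had a Kit UMI.

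Hoxa9, the partner of Meis1, was confined to fewer classes. HSC/MPP-like cells had 42.0 CPM in B12+Butyrate, 50.5 in B12, 51.9 in Butyrate and 35.6 in Control. Basophil/mast-like cells averaged 26.7 ± 7.38 CPM, which overlapped the HSC/MPP-like range, and plasmacytoid DC-like cells 14.1 ± 3.30 CPM. The limit given above for the plasmacytoid DC-like class holds here too. Macrophage-like cells had 0.889 ± 0.605 CPM of Hoxa9. Their 780 cells were led by C1qa, Cd209a, C1qb and C1qc, with Clec10a, Clec4b1, H2-Eb1 and H2-Aa, which like Cd209a are also genes of dendritic cells, among the 10 leading genes. At resolution 0.5 the cluster led by C1qa was nearest to conventional DC and stayed unnamed.

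Gata2 was highest outside the stem cell class. Basophil/mast-like cells had 569 CPM in B12+Butyrate, 626 in B12, 573 in Butyrate and 546 in Control, and 86.1% of them had a UMI. These 158 cells were led by Prss34, Prg2, Mcpt8, Fcer1a and Epx, so genes of eosinophil granules (Prg2, Epx) were among their leading genes. HSC/MPP-like cells had 24.2, 33.0, 31.5 and 29.8 CPM in the same order, 19.5-fold below on the means, and no other class averaged more than 0.889 CPM. Of all Gata2 UMIs, 63.2% lay in the basophil/mast-like and 25.7% in the HSC/MPP-like class.

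Mllt3 and Slamf1 were highest in T-like cells, and Mllt3 was found in most classes. T-like cells had Mllt3 at 701 ± 63.5 CPM and NK-like cells at 382 ± 60.6 CPM, above the 153 ± 11.8 CPM of B-lineage-like cells and the 87.2 ± 8.55 CPM of HSC/MPP-like cells, which had rank 7 of 12 classes. Conventional DC-like cells (148 ± 17.7 CPM) overlapped B-lineage-like cells, and basophil/mast-like cells (113 ± 38.3 CPM) overlapped HSC/MPP-like cells. T-like cells held 21.3% of all Mllt3 UMIs, and monocyte-like cells, which were far more numerous, 18.01%. HSC/MPP-like cells held 9.17%. Slamf1, a receptor of activated lymphocytes as well as of stem cells, had 66.6 ± 18.4 CPM in T-like and 39.6 ± 8.65 CPM in B-lineage-like cells. HSC/MPP-like cells had 2.10 CPM of Slamf1 (0.907 to 4.14) in B12+Butyrate, 5.95 (3.98 to 8.54) in B12, 6.42 (4.49 to 8.88) in Butyrate and 2.17 (1.04 to 3.996) in Control, from 83 UMIs in all. The Butyrate interval stands clear of those of B12+Butyrate and Control, and in B12+Butyrate the 8 UMIs came from 2 cells.

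Procr and Cdkn1c were near the limit of what this depth shows. Procr was in 6.18% of HSC/MPP-like cells, at 7.35 CPM (4.89 to 10.6) in B12+Butyrate, 4.72 (2.99 to 7.08) in B12, 3.92 (2.46 to 5.94) in Butyrate and 3.48 (1.99 to 5.65) in Control. All 4 intervals overlap, while 57.4% of the 155 Procr UMIs lay in this class. Cdkn1c had 2.00 ± 0.483 CPM in HSC/MPP-like cells and 3.54 ± 2.66 CPM in NK-like cells, where it rests on 4 UMIs, and its UMIs were spread over neutrophil-like (28.0%), monocyte-like (24.4%) and HSC/MPP-like cells (13.6%).

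Among Kit-positive barcodes, Hlf was found at nearly equal shares in the 4 libraries and the other factors were not. Hlf was detected in 18.4% (16.7 to 20.2) of Kit-positive barcodes in B12+Butyrate, 20.5% (18.7 to 22.3) in B12, 19.1% (17.2 to 21.1) in Butyrate and 18.1% (16.4 to 19.9) in Control, all overlapping. Mecom was in 3.51% (2.74 to 4.43) in B12+Butyrate, against 6.01% (5.02 to 7.13) in B12, 7.06% (5.85 to 8.43) in Butyrate and 7.00% (5.89 to 8.24) in Control. Only the B12+Butyrate interval stands clear of the others for Mecom. Meis1 was in 11.3% in B12+Butyrate, 14.5% in B12, 17.8% in Butyrate and 19.4% in Control, and Mllt3 in 16.4%, 21.2%, 24.6% and 28.1% in that order. For both genes the B12+Butyrate interval lay below the other 3, while those of B12 and Butyrate and those of Butyrate and Control overlapped. Hoxa9 was in 5.58%, 8.82%, 10.0% and 7.26%, and Gata2 in 3.51%, 4.90%, 5.55% and 6.20%. Procr (0.630% to 1.39%), Slamf1 (1.497% to 2.96%) and Cdkn1c (1.45% to 1.70%) were rare in every library.

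**Figure D3:**
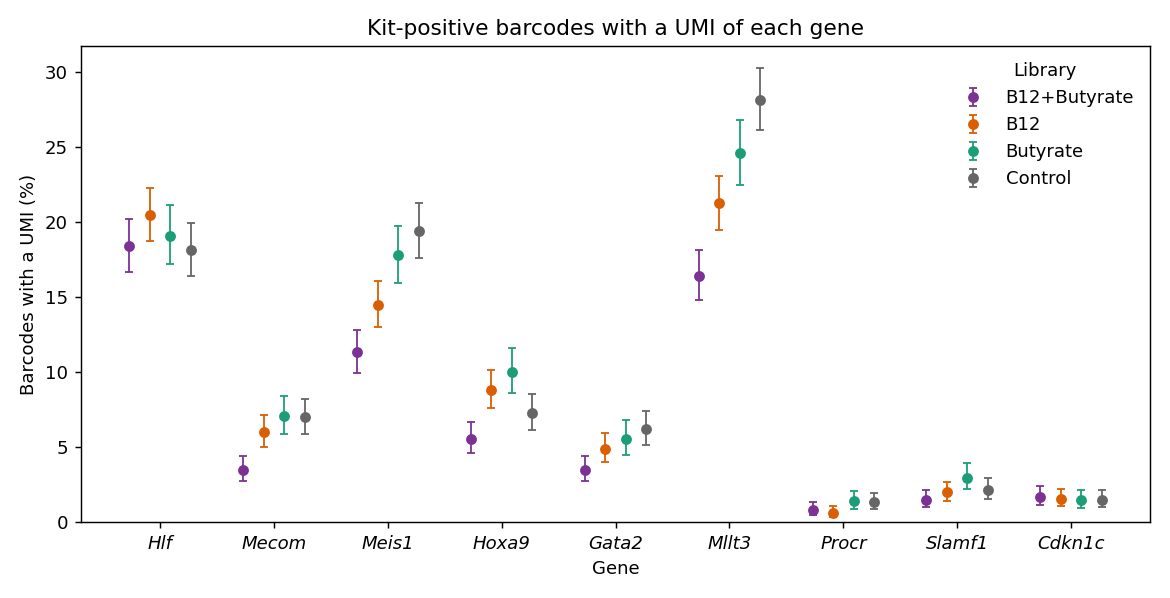
Share of Kit-positive barcodes with at least 1 UMI of each gene (percent), one point per library with its exact 95% binomial interval. The Hlf points lie together between 18.1% and 20.5%, while the Mecom point of B12+Butyrate (3.51%) lies below the other 3.

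The classes behind those shares differed between genes. Over the 4 libraries, 1423 Kit-positive barcodes had Hlf, of which 40.6% were neutrophil-like, 21.7% GMP-like, 21.3% HSC/MPP-like and 13.4% called doublets. Mecom was in 436, of which 68.6% were HSC/MPP-like. Shares of HSC/MPP-like cells among Hlf-positive barcodes were 12.1% in B12+Butyrate, 19.2% in B12, 30.4% in Butyrate and 25.4% in Control, so equal Hlf shares covered unequal mixtures. The Kit-positive pool itself was 60.6% neutrophil-like in B12+Butyrate, 56.1% in B12, 52.7% in Butyrate and 46.4% in Control, and 5.63%, 8.00%, 11.03% and 8.53% HSC/MPP-like in that order. With every cell thinned to 2000 UMIs the Hlf shares were 2.22%, 2.81%, 3.84% and 2.66%, and the Mecom shares 1.29%, 2.33%, 3.09% and 3.03%.

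Set against Kit-negative barcodes, Mecom and Hlf ran one way and Mllt3 and Slamf1 the other. Mecom was at 12.03 CPM in Kit-positive and 0.242 CPM in Kit-negative barcodes of B12+Butyrate, and at 26.5 and 0.826 CPM in those of Control. Hlf was at 14.3 and 4.53 CPM in B12+Butyrate and at 17.9 and 3.75 CPM in Control. Mllt3 was lower in Kit-positive barcodes of all 4 libraries, with 24.0 CPM in Kit-positive against 46.5 CPM in Kit-negative barcodes of B12+Butyrate, and 27.8 against 31.0 in B12, 35.5 against 60.4 in Butyrate and 38.3 against 53.9 in Control. Slamf1 was likewise at a lower CPM in Kit-positive than in Kit-negative barcodes of each library.

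Among Kit-positive barcodes, the share with 3 or more of the 9 genes was highest in the HSC/MPP-like and basophil/mast-like classes. At least 3 genes were found in 6.14% (119 of 1937) of Kit-positive barcodes in B12+Butyrate, 9.74% (201) in B12, 11.7% (185) in Butyrate and 10.7% (202) in Control. Of these barcodes, 62.2%, 60.7%, 70.8% and 51.5% were HSC/MPP-like, and 7.56%, 9.95%, 8.65% and 16.8% were called doublets. Taken by class, 67.9%, 73.9%, 74.9% and 64.6% of Kit-positive HSC/MPP-like barcodes had 3 or more in that order. Kit-positive basophil/mast-like barcodes, only 16, 28, 19 and 38 per library, had them in 68.8%, 57.1%, 73.7% and 65.8%, so a count of 3 genes did not separate these classes. At 5 or more genes it was 24.8%, 36.4%, 29.7% and 34.8% of HSC/MPP-like against 6.25%, 17.9%, 21.1% and 5.26% of basophil/mast-like barcodes. Of all Kit-positive barcodes with 5 or more genes, the HSC/MPP-like share was 84.4% in B12+Butyrate, 82.2% in B12, 81.3% in Butyrate and 84.9% in Control. Depth moves with this count, since barcodes with 3 or more genes had medians of 25737 to 31449 UMIs and those with none 18240 to 19291. At 2000 UMIs per cell the shares were 0.620%, 1.31%, 2.33% and 2.07% in the order above, with B12+Butyrate again lowest.

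Most HSC/MPP-like cells held several of the genes and most GMP-like cells held at most 1. At least 3 genes were detected in 63.0% (54.0 to 71.4) of HSC/MPP-like cells in B12+Butyrate, 63.5% (56.4 to 70.2) in B12, 67.4% (60.8 to 73.6) in Butyrate and 54.3% (47.3 to 61.1) in Control. Every pair of these intervals overlaps. Among GMP-like cells the shares were 6.14%, 8.74%, 6.60% and 6.75%, although GMP-like medians of 26220 to 29229 UMIs were as deep as those of HSC/MPP-like cells. Thinned to 10000 UMIs, HSC/MPP-like cells had 3 or more in 30.2% in B12+Butyrate, 38.0% in B12, 43.5% in Butyrate and 38.7% in Control. All 9 genes were seen together in 1 cell, of the Butyrate library.

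**Figure D4:**
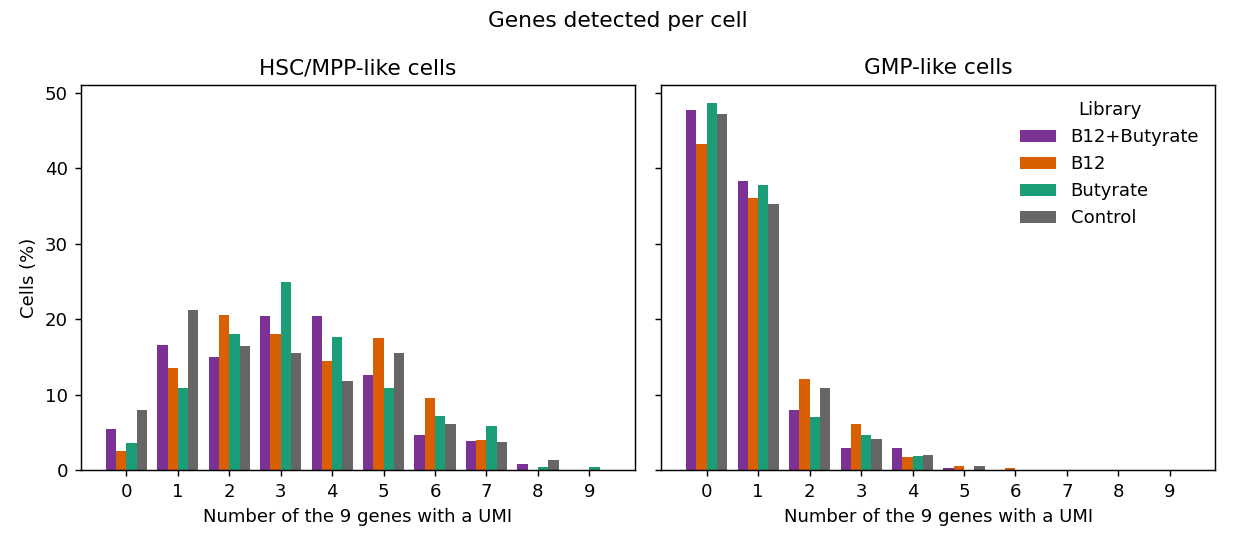
Share of cells (percent) by how many of the 9 genes had a UMI, in HSC/MPP-like cells (left) and GMP-like cells (right), one bar per library. HSC/MPP-like cells peak at 1 to 4 genes with a tail that ends at 7 to 9 genes, while between 43.2% and 48.6% of GMP-like cells had none.

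Hlf and Mecom were found in the same HSC/MPP-like cells more often than the product of their shares gives. Both were detected in 26 cells of B12+Butyrate, against 17.4 from the product of the shares, in 62 against 37.8 in B12, in 67 against 42.1 in Butyrate and in 65 against 38.6 in Control. Mecom was detected in 55.3% of Hlf-positive cells and 26.3% of Hlf-negative cells in B12+Butyrate, in 72.9% and 23.5% in B12, in 66.3% and 20.8% in Butyrate and in 69.9% and 19.3% in Control. Meis1 was in 94.3% to 97.8% of Mecom-positive cells. At 10000 UMIs per cell Mecom was still in 67.9% to 75.0% of Hlf-positive cells and in 17.7% to 21.3% of the others. Of the 36 pairs among the 9 genes, 30 had an expected overlap of at least 1 cell in every library, and 25 of them lay above it in all 4. Thinning to 10000 UMIs left 24 such pairs, of which 23 lay above in all 4, and in GMP-like cells it was 3 of 8. These counts carry no test, and pairs of other genes were not counted, so they have no background share.

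Genes that followed the 9 in Kit-positive barcodes were ranked by the smallest of the 4 library log2 ratios between barcodes with 3 or more of the genes and barcodes with none. Angpt1, which encodes angiopoietin 1 and is expressed by stem cells, led with 682 CPM against 1.28 CPM in B12+Butyrate, 592 against 0.562 in B12, 1089 against 2.73 in Butyrate and 755 against 1.57 in Control. Among the next 14 were Cpa3, 2610307P16Rik, Msi2, Ikzf2, Prg2, Adgrg1, Adgrl4, Aff3, Mcpt8, Rnf220, St6galnac3, Prss34 and Cd34. Msi2, an RNA-binding protein of stem cells, and Adgrg1, an adhesion receptor, stand beside the mast cell and basophil proteases Cpa3, Mcpt8 and Prss34 in this order. Basophil/mast-like cells made up 7.57% to 12.4% of the barcodes with 3 or more genes, and called doublets 7.56% to 16.8%. At the other end were the granule and neutrophil genes Chil3, Ngp, Fcnb, Lcn2, S100a9, S100a8, Ltf, Camp, Cd177 and Wfdc21. Only genes at 20 CPM or more in the barcodes with 3 or more genes of every library were ranked, a floor that favours genes higher there. Of the 6298 genes at this level, 2691 were higher and 417 lower in all 4 libraries, so agreement over libraries was common.

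Of the other stem cell signature genes on a list of 32, 9 passed that level and 7 of these were higher in all 4 libraries. The 9 had a median log2 ratio of 3.64 against 0.52 over all genes. Over all genes 2691 of 6298 were higher and 417 lower in all 4 libraries. Counts below such as 4 of 7, 6 of 11 or 3 of 7 higher are not far from that share. Lymphoid priming genes had 4 of 6 higher in all 4 and a median of 1.68, and G2/M phase genes 12 of 17 lower in all 4 and a median of -0.69. Partners in the blood transcription factor complexes, such as Lmo2, Erg and Runx1, had 4 of 7 higher and a median of 0.93. Myeloid progenitor genes had 6 of 11 higher and 1 lower, with a median of 0.88, and S phase genes 4 of 18 higher and 1 lower, with a median of 0.30. HOX and TALE partners had 2 of 3 higher and 1 lower (median 0.87), and CDK inhibitors 2 of 3 lower (median -0.725). For super elongation complex genes, which work with Mllt3, it was 3 of 7 and 0.51, against 0.52 over all genes.

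Within HSC/MPP-like cells brought to 10000 UMIs, cell cycle RNA was lower in cells positive for most of the 9 genes than in cells without them. For an S phase and a G2/M list alike, 7 of the 9 genes had a log2 ratio of positive over negative cells below 0 in all 4 libraries. The exceptions, each above 0 in 1 library or more, were Slamf1 and Cdkn1c for S phase, and Slamf1 and Meis1 for G2/M. Slamf1-positive cells numbered only 2, 5, 10 and 3 in B12+Butyrate, B12, Butyrate and Control, and Cdkn1c-positive cells 3, 4, 7 and 3. The Cdkn1c ratio for G2/M was as near 0 as -0.02 in Control. Other genes were not counted in this way, so the 7 of 9 have no background share. The S phase list (18 genes) summed to 2171 CPM in Hlf-positive and 2475 CPM in Hlf-negative cells of B12+Butyrate, to 1865 and 2474 in B12, 1551 and 2200 in Butyrate, and 1496 and 2521 in Control. The counting intervals of the 2 sets did not overlap in any library, but they leave out the spread between cells. Hlf-positive cells numbered only 24 in B12+Butyrate, 51 in B12, 73 in Butyrate and 56 in Control. For the G2/M list (20 genes) the Hlf log2 ratios were -0.57 in B12+Butyrate, -0.18 in B12, -0.43 in Butyrate and -0.59 in Control. Mecom gave -0.30, -0.28, -0.51 and -0.33 for S phase and -0.28, -0.22, -0.35 and -0.47 for G2/M. Procr-positive cells, which numbered 7 to 11 per library, had log2 ratios of -0.90 to -2.04 for S phase and -1.64 to -2.43 for G2/M. Mllt3 had ratios of -0.47 to -0.13 for S phase and -0.43 to -0.32 for G2/M, and Gata2 -0.89 to -0.19 and -0.51 to -0.14. Without thinning 5 of the 9 genes were below 0 in all 4 libraries for S phase and only 1, Mllt3, for G2/M. The unthinned Hlf ratios were 0.02, -0.25, -0.22 and -0.35 for S phase, and those of Mecom and Procr for G2/M had both signs.

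The design gives 4 comparisons, which share libraries, so they are not independent of each other. A gene was past the fold when its log2 ratio of CPM, with 10 CPM added to both values, was at least 0.5 in size, among genes at 10 CPM or more in either library. In the Kit-positive barcodes Hlf was at 14.3 CPM in B12+Butyrate, 18.2 in B12, 26.6 in Butyrate and 17.9 in Control. Mecom was at 12.03, 22.4, 30.6 and 26.5 CPM in that order, and Meis1 at 26.5, 37.5, 63.6 and 50.0 CPM. Each of these 3 factors was lowest in B12+Butyrate and highest in Butyrate. Mllt3 was at 24.0, 27.8, 35.5 and 38.3 CPM, and Gata2 at 5.15, 9.91, 11.2 and 11.6 CPM, both lowest in B12+Butyrate and highest in Control. Hoxa9 (5.35 to 9.62 CPM), Slamf1, Procr and Cdkn1c stayed below 10 CPM in all 4 and entered no comparison of Kit-positive barcodes.

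B12 against Control asked what B12 did on NaCl water. None of the 5 genes that passed the level was past the fold in Kit-positive barcodes, where 1.95% of 8099 genes were (0.037% higher and 1.91% lower). Their median log2 ratio was -0.17 against -0.04 over all genes. Meis1 had -0.34 (counting interval -0.43 to -0.24) and Hlf 0.01 (-0.13 to 0.16). In HSC/MPP-like cells it was 0 of 6, where 1.53% of 9007 genes were past the fold (0.333% higher and 1.2% lower), with Hoxa9 highest at 0.41 (0.12 to 0.69) and Meis1 lowest at -0.29 (-0.39 to -0.18).

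B12+Butyrate against B12 asked what butyrate added to B12. In Kit-positive barcodes 1 of 4 genes was past the fold, Mecom, lower at -0.56 (-0.71 to -0.40), where 0.341% of 7925 genes were past it (0.24% higher and 0.101% lower). All 4 genes lay below 0, as did 65.6% of all genes, with a median of -0.30 against -0.04 over all genes. HSC/MPP-like cells gave the same single gene, Mecom at -0.58 (-0.74 to -0.42), 1 of 6 where 1.06% of genes were past the fold (0.402% higher and 0.658% lower), and a median of -0.33 against -0.03.

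Butyrate against Control asked what butyrate did without B12. In Kit-positive barcodes 0 of 5 genes were past the fold, where 0.625% of 8154 genes were (0.27% higher and 0.356% lower), and Hlf had 0.39 (0.25 to 0.53) and Meis1 0.29 (0.21 to 0.38). In HSC/MPP-like cells 0 of 6 were, where 1.45% were (0.444% higher and 1.01% lower), with Hoxa9 at 0.44 (0.16 to 0.72) and Hlf at 0.27 (0.09 to 0.45). The medians were 0.16 and 0.04, against -0.03 over all genes in both.

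B12+Butyrate against Butyrate asked what B12 added to butyrate, and here the stem cell factors differed most. Meis1 at -1.01 (-1.11 to -0.91), Mecom at -0.88 (-1.03 to -0.73) and Hlf at -0.59 (-0.74 to -0.45) were lower in Kit-positive barcodes of B12+Butyrate, 3 of 5 genes, where 1.69% of 8086 genes were past the fold (0.0618% higher and 1.63% lower). Gata2 had -0.48 and Mllt3 -0.42. The makeup of the pool moved with this result, with 5.63% HSC/MPP-like cells in B12+Butyrate and 11.03% in Butyrate. When each class was given the same weight in every library, the ratios were -0.49 for Meis1, -0.44 for Mecom and -0.38 for Hlf, and 0 of 4 genes were past the fold. In the same setting Mecom in B12+Butyrate against B12 was at -0.40, also short of the fold.

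Within HSC/MPP-like cells the difference was present as well. Hlf was at -0.97 (-1.20 to -0.74), Meis1 at -0.63 (-0.74 to -0.51) and Mecom at -0.55 (-0.71 to -0.39) in B12+Butyrate against Butyrate, 3 of 6 genes lower, where 2.9% of 8995 genes were past the fold (0.967% higher and 1.93% lower). Hoxa9, Mllt3 and Gata2 were at -0.25 to -0.28, and the median of the 6 was -0.42. With a coarser clustering, chosen after the data were seen, 1 of 6 was past the fold. The class then held 1258 cells against 760, with 206 in B12+Butyrate and 393 in Butyrate. Plasmacytoid DC-like cells numbered 209 there against 636, so the coarser class was also a different mixture. The share of HSC/MPP-like cells with an Hlf UMI was 37.0% (28.6 to 46.0) in B12+Butyrate and 45.7% (39.0 to 52.5) in Butyrate, with overlap. Cells with Hlf held 4.32 Hlf UMIs each in B12+Butyrate and 6.34 in Butyrate, although B12+Butyrate cells were deeper, with a median of 30196 UMIs against 23757. Other RNA of the class moved too. The 7 GMP markers summed to 10030 CPM in B12+Butyrate and 6472 in Butyrate (8365 in B12 and 8356 in Control), the 6 immature neutrophil markers to 279 and 93.7 (229 in B12 and 944 in Control), and no marker of either list was at 0. Their part in the result was not tested.

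**Figure D5:**
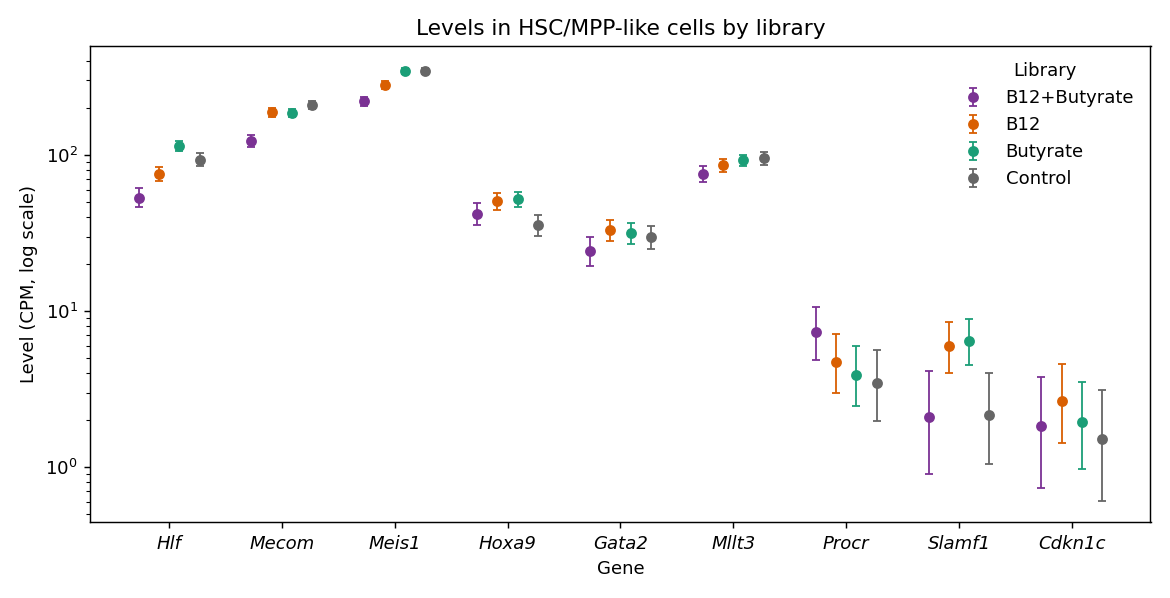
Level of each gene in HSC/MPP-like cells (CPM, log axis), one point per library with its exact 95% Poisson interval. For Hlf, Mecom and Meis1 the B12+Butyrate point (53.3, 123 and 221 CPM) lies below the other 3, while the Procr and Cdkn1c intervals all overlap.

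Lists of other genes set this comparison of HSC/MPP-like cells in context. Other stem cell signature genes had 15 of 15 measured members below 0 and 5 past the fold, with a median of -0.41 against 0.00 over all genes. This list shares genes with the naming markers of the class, among them Cd34, Ly6a and Gcnt2, so it is not separate from them. Over all genes 50.8% lay below 0 and 49.2% above, and 1.93% were past the fold lower and 0.967% higher. The signature genes ran from Ltb at -0.93 and Ly6a (Sca-1) at -0.82 to Adgrg3 at -0.13 and Ifitm1 at -0.10. Lymphoid priming genes had 8 of 8 below 0 and 5 past the fold (median -0.56), with Dntt at -1.16, Il7r at -0.78, Il12a at -0.31 and Cd27 at -0.26. Myeloid progenitor genes ran the other way, with 11 of 12 above 0, 4 past the fold upward and a median of 0.45. Their extremes were Elane at 1.15 and Ms4a3 at 0.95, both of granulocyte precursors, against Gfi1 at 0.12 and Irf8, a monocyte and dendritic cell factor, at -0.52. S phase genes had 17 of 18 above 0 and G2/M genes 15 of 20, with none past the fold. Partners of the blood transcription factor complexes had 8 of 8 below 0, none past the fold and a median of -0.10. HOX and TALE partners had 3 of 4 below 0 and none past the fold, with Pbx3 highest at 0.23, and super elongation complex genes 7 of 9 below 0, none past the fold, with Kmt2a at -0.45.

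The same lists in B12 against Control and in Butyrate against Control gave other splits of HSC/MPP-like cells. With B12, 4 of 15 stem cell signature genes were past the fold and lower, with Ltb at -1.07 and Ifitm1 at -0.70, where 1.2% of all genes were. G2/M genes had 18 of 20 below 0 (median -0.21), while S phase genes had 14 of 18 above 0 (median 0.14), against 52.1% of all genes below 0 and 47.9% above. With Butyrate, 8 of 8 lymphoid priming genes lay above 0, led by Dntt at 0.74, against 42.2% of all genes above 0. There 3 of 12 myeloid progenitor genes were past the fold and lower, with Ms4a3 at -0.85 and Elane at -0.75, where 1.01% of all genes were. G2/M genes had 20 of 20 below 0, against 57.8% of all genes, and S phase genes 11 of 18. Ifitm1, an interferon-induced membrane protein, was at -1.13, the 1 stem cell signature gene of 17 past the fold.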

How the data were processed

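UMI counts per gene and barcode were deposited by the authors as integer matrices. Per the file headers the program was Cell Ranger 7.1.0, and the submitters' processing notes name the build GRCm39. Not given in the sources used here are the use of intron reads and any further filter on deposited barcodes.

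Of 34670 barcodes, 31209 passed the filter stated in the results. Doublets were called against simulated doublets (0.8% expected per 1000 barcodes); they were left out of the classes and kept among Kit-positive barcodes. The 29245 remaining cells were clustered together (2000 variable genes, 30 principal components, 20 neighbours, Leiden resolution 1; scikit-learn 1.9.0, leidenalg 0.10.2, Python 3.11.15). Of 31 clusters, 27 were named from fixed marker lists into 12 classes and 4 stayed unnamed. The 9 genes were kept out of both steps.

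Levels are summed UMIs per 1000000; ratios carry 10 CPM as pseudocount. Thinning drew 2000 UMIs per cell (10000 in HSC/MPP-like cells), leaving out shallower cells. The calculation of ratios and of the fold limit was tested on simulated counts. Interval bounds take UMIs as independent. Named genes outside the 9 follow a rule: the extremes of each list, and the 15 highest and 10 lowest by the ranking given. Some genes that this rule names are not reported here. The 9 genes and all lists were chosen with earlier results of these data known. Promoter windows came from RefSeq (GRCm38.p6), another build than the counts, and were matched by symbol. Alternatives tried were the cell filter, doublets, Kit gate, thinning, scaling, class makeup, pseudocount, minimum level, fold limit and clustering resolution.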

Additional observations from a re-analysis of the deposited data

How the results depend on the processing

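No paired analysis was possible because each group has 1 library, and for the same reason no library could be left out. For Kit-positive barcodes the median log2 ratio was taken over those of the 9 genes that passed the level, 4 or 5 per comparison in the values reported. It stayed within counting error in 29 of 44 recomputations and moved beyond it in 15. The 29 include 1 per comparison, the fold limit of log2 1, that could not move a median. In B12 against Control (-0.17, 0 genes past the fold) it was -0.36 with 1 gene when thinned to 2000 UMIs, -0.40 with 2 genes as a mean over scaled cells, and -0.025 with no minimum level. In B12+Butyrate against B12 (-0.30, 1 gene) it was -0.67 with 3 genes when thinned and -0.47 with 2 over scaled cells. The count there was 2 with Kit at 2 UMIs or more, and 0 with the same class makeup or a fold limit of log2 1. In Butyrate against Control (0.16, 0 genes) the median was 0.021 with 1 gene when thinned, 0.30 with 1 gene at the higher Kit gate, -0.08 over scaled cells and -0.02 with the same makeup, and 1 gene passed with a pseudocount of 1 CPM. The sign of that median is therefore not stable. In B12+Butyrate against Butyrate (-0.59, 3 genes) every alternative kept the median below 0: -0.75 at the higher Kit gate, -0.91 thinned, -0.82 over scaled cells, -0.986 with 5 genes at a pseudocount of 1 CPM, -0.42 with no minimum, and -0.41 with 0 genes at the same makeup. A fold limit of log2 1 left 1 gene.

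In HSC/MPP-like cells, all alternatives were chosen after seeing the data. The class held 1258 cells at resolution 0.5 and 436 at resolution 2, against 760 in the values reported. At resolution 0.5 the median in B12 against Control was 0.13 against -0.13, and 2 genes were past the fold in B12+Butyrate against B12 (1 in the values reported) and 1 in B12+Butyrate against Butyrate (3 reported). At resolution 2, 1 gene was past it in Butyrate against Control. Over scaled cells the counts were 1 in B12 against Control, 3 in B12+Butyrate against B12 and 1 in Butyrate against Control.

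The share of Kit-positive barcodes with 3 or more genes was 11.3% in B12+Butyrate, 17.7% in B12, 20.3% in Butyrate and 18.8% in Control at the higher Kit gate, and 0.620%, 1.31%, 2.33% and 2.07% after thinning. Among cells with no Kit UMI the log2 level of Hlf in HSC/MPP-like over GMP-like cells was -0.15, and that of Meis1 over basophil/mast-like cells -0.012. The cause of these shifts was not tested. Procr, Slamf1 and Cdkn1c rest on 38 to 89 UMIs in HSC/MPP-like cells, so differences between libraries in them were mostly not detectable at this depth.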

Other observations

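A small cluster that no marker list named also carried Hlf. It held 46 cells, 11 in B12+Butyrate, 4 in B12, 21 in Butyrate and 10 in Control, and was led by Cntn1, Il23r, Stab2, Rora, Gata3 and Il2ra. Gata3 and Rora are transcription factors of innate lymphoid and T cells, and Il2ra and Il23r are cytokine receptors. Hlf was in 17 of the 46 cells at 77.4 CPM (49.1 to 116), Meis1 at 151 CPM and Mllt3 at 407 CPM. The median depth of these cells was 5917.5 UMIs. Mecom, Procr, Hoxa9 and Gata2 had 0 UMIs in the 46 cells. With the bound again taken as 3 cells, this allows a share of cells with a UMI of up to 6.52%. At this depth that is no limit on cells that express them. Per library Hlf was at 67.8 CPM in B12+Butyrate, 142 in B12, 59.3 in Butyrate and 96.0 in Control, from 4 to 7 UMIs each.

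Mllt3 and Slamf1 also differed among lymphoid clusters. An unnamed cluster of 902 cells, nearest to B cells and led by Sox5, Agbl1, Fcrl5, Bhlhe41 and Il5ra, had Mllt3 at 211 CPM and Slamf1 at 19.5 CPM, with 1 Hlf UMI in all. Of the T-like clusters, one of 590 cells had Slamf1 at 119 CPM and Mllt3 at 930 CPM, and one of 465 cells had 32.3 and 545 CPM.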
